A study of Homo sapiens with 4 samples.

Results

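The 9 genes described here are surfactant genes and lineage transcription factors of the distal lung and the foregut, chosen by name from the 25192 genes of the deposited tables: NKX2-1, SFTPB, SFTPC, SFTPD, ABCA3, FOXA1, FOXA2, GATA6 and HNF4A. All 9 were found in every table. They were measured by RNA-seq in A549, an established human lung adenocarcinoma cell line, 48 h after infection, in 2 libraries of cells that received the control empty virus (EV) and 2 libraries of cells that received a virus expressing FCN3. Both viruses were made from a retroviral vector with a GFP cassette, and FCN3 carried a V5 tag at its C-terminus. FCN3 is a secreted lectin, and the study asked what its ectopic expression does to lung adenocarcinoma cells. The labels do not say whether the libraries of a group came from separate cultures, so p-values measure the spread between these libraries, which may be technical. The share of cells that carried each virus is not given in the sources used here.

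Alveolar type 2 cells make surfactant, a film of phospholipid and protein that keeps alveoli open. SFTPB and SFTPC are its hydrophobic proteins, SFTPD is a secreted collectin, and ABCA3 pumps phospholipid into the lamellar bodies where surfactant is stored. NKX2-1 is the homeodomain factor that directs lung identity and switches on surfactant genes, acting with FOXA1 and FOXA2, forkhead factors that open chromatin throughout foregut endoderm. GATA6 is a zinc finger factor of endoderm development. HNF4A is a nuclear receptor of liver and gut epithelium, and it is known from lung adenocarcinomas that have lost NKX2-1.

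The lineage genes divided into 4 that were not detectable and 5 that were expressed in all 4 libraries. NKX2-1, SFTPB, SFTPC and SFTPD stayed under the detection floor of 3 counts in every library, with or without FCN3. FOXA2, ABCA3, HNF4A, FOXA1 and GATA6 were expressed. With the FCN3 virus, GATA6 was 2.44-fold (95% interval 1.53 to 3.89) and ABCA3 1.34-fold (95% interval 1.15 to 1.56) the level in EV cells, while FOXA2 was at 0.998-fold (0.848 to 1.17). None of them passed an FDR of 0.01 without the replicate number in the model, where edgeR called 0.965% of all tested genes. GATA6, ABCA3 and HNF4A passed it when libraries were paired by replicate number, a fit in which edgeR called 36.2% of all tested genes, and HNF4A did not pass in DESeq2 with the same pairing (adjusted p = 0.18).

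The 4 promoter windows shown first belong to the 3 genes that passed with this pairing. Each holds the 250 bases before a RefSeq transcript start, read 5′ to 3′ on the strand of the gene. The sequences come from RefSeq on GRCh38.p14, and the coordinates are those at which the same 250 bases were found on GRCh37, the build of the tables. HNF4A has an upstream promoter called P2 and a downstream promoter called P1, whose windows lie 45540 bases apart. The tables give only 1 value for the gene and do not separate them. Capitals mark a match to 1 of 4 motifs searched on both strands: TGTTTAC for FOXA factors, AGATAA for GATA factors, CAAGTG for NKX2-1 and CAAAGTC for HNF4A.
GATA6, chr18:19749300-19749549 (plus strand): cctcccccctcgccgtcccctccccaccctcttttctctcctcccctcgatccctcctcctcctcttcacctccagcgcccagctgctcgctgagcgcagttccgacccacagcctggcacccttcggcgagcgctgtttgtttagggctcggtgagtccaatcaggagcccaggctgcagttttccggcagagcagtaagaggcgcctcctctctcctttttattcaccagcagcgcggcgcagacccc
ABCA3, chr16:2390730-2390979 (minus strand): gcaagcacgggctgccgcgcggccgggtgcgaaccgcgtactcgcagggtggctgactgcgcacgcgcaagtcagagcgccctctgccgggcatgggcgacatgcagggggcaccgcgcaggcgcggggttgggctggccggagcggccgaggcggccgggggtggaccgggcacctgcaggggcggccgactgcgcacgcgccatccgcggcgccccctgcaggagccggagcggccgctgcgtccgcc
HNF4A P2, chr20:42984089-42984338 (plus strand): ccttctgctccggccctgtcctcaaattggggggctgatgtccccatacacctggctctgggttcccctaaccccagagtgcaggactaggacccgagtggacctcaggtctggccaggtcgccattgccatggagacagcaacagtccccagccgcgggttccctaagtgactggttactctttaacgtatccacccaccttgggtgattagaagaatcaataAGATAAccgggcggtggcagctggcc
HNF4A P1, chr20:43029629-43029878 (plus strand): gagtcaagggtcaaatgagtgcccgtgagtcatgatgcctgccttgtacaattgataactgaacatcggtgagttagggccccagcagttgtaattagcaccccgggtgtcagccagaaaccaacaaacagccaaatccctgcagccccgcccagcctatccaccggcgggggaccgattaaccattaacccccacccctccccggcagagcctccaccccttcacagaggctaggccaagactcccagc
The GATA motif in the HNF4A P2 window, from 26 to 21 bases before the start, was the only match in these windows. Among 35116 RefSeq promoter windows of this length, 9.17% held the GATA motif, 9.5% the NKX2-1 motif, 2.98% the FOXA motif and 2.91% the HNF4A motif. A window of NKX2-1 itself, a gene that was not detectable, held 3 matches. The NKX2-1 motif lay from 147 to 142 and the FOXA motif from 130 to 124 bases before the start. The GATA motif lay on the opposite strand, from 100 to 95 bases before the start. In this window 137 bases are exon of protein-coding genes and 123 are exon of NKX2-1-AS1, and 0 GENCODE transcript starts lie within 50 bases of its start. The other NKX2-1 window has 1 GENCODE start within 50 bases and held no match. The FOXA1 window held the NKX2-1 motif on the opposite strand, from 12 to 7 bases before the start, and the SFTPB and SFTPD windows held no match. In the RefSeq promoter table used here, 7 of the 9 genes were matched. GC content differed between the printed windows, at 79.2% for ABCA3 and 64.4% for GATA6 against 58.4% for P2 and 58.0% for P1 of HNF4A. The ABCA3 window overlaps 18 bases of an annotated exon of ABCA3 itself and 57 bases of exons of ABCA17P, a pseudogene, and 180 bases of the GATA6 window are exon of GATA6-AS1, a noncoding gene on the opposite strand.

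The libraries held between 16353554 and 35733735 expected counts, which are RSEM's estimates of the reads of each gene. At these depths 3 counts correspond to between 0.084 and 0.183 counts per 1000000 (CPM) of the raw library total. Replicate 1 was the deeper of the pair in either group. FCN3 itself was at 1 and 0 counts in the EV libraries and at 722388 and 448352 counts with the FCN3 virus, so the libraries matched their labels. KRT7, KRT8 and KRT18, keratins of simple epithelium, averaged 4713, 2232 and 1825 TPM in EV cells, whereas ESRP1 and GRHL2, regulators of epithelial splicing and transcription, reached at most 9 and 2 counts in a library. TPM is transcripts per 1000000, a level per gene length, and is the scale used below to compare genes with each other.

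NKX2-1 (GRCh37, chromosome 14, 36985597 to 36990354, minus strand) had 1 count in EV replicate 1 and 0 in each of the other libraries, which allows a level of at most 0.156 TPM in the shallowest of them. NKX2-1 was thus not detectable, and neither were its neighbours: SFTA3, with which it shares 32.6% of its exon bases, and NKX2-1-AS1, which shares 12.7% on the opposite strand, were at 0 in all 4 libraries.
SFTPB (chromosome 2, 85884437 to 85895864, minus strand) had 1 count in FCN3 replicate 1 and 0 elsewhere. SFTPC (chromosome 8, 22014426 to 22021992, plus strand) had 1 count in EV replicate 1 and 0 elsewhere. SFTPD (chromosome 10, 81697223 to 81742370, minus strand), which like FCN3 encodes a lectin with a collagen-like region, had 2 counts in replicate 1 of each group and 0 in replicate 2 of each group. Over the 4 libraries these 4 genes took 7 of 107254922 counts. The highest level that 3 counts allow for any of them was 0.373 TPM, for SFTPC in EV replicate 2, while ABCA3 was at 16.1 TPM or more in every library. These limits cover counting error only. No fold change is given for the 4 genes, because both groups lie under the floor.

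**Figure D1:**
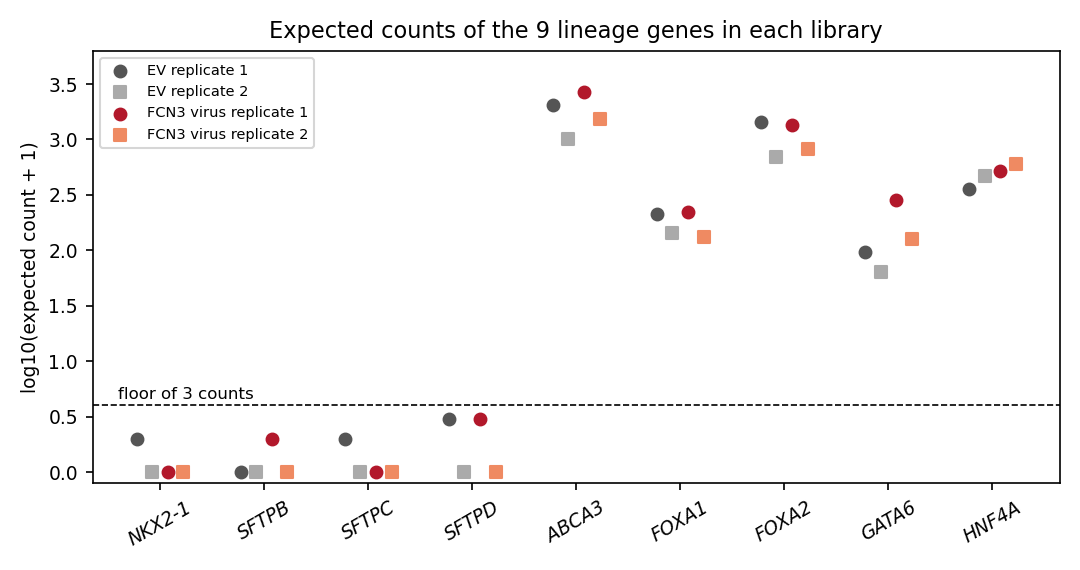
Expected counts of the 9 genes on a log10(count + 1) axis, with 1 point per library: circles are replicate 1, squares replicate 2, grey EV and red or orange FCN3 virus. The dashed line marks the floor of 3 counts, with NKX2-1, SFTPB, SFTPC and SFTPD below it at 0 to 2 counts and the other genes at 63 counts or more.

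Other genes of alveolar and airway cells, from lists set beside the 9 genes, were in part under the floor and in part expressed. Of 17 further genes of alveolar type 2 cells, 8 were under the floor in every library. Among these SFTPA1, SFTPA2, SFTA2 and SFTA3 were at 0 throughout. Another 8 were detected in all 4 libraries. The highest levels in EV cells in this list were those of SDC1, a heparan sulfate proteoglycan (192 TPM), LPCAT1, an acyltransferase that makes surfactant phosphatidylcholine (85.5 TPM), and ETV5, an ETS transcription factor (17.7 TPM). None of these is restricted to type 2 cells. Among 10 genes of alveolar type 1 cells 4 were under the floor, and HOPX, PDPN and CLIC5 were at 0. The other 6 were detected in every library, among them AGER, with between 50 and 74 counts in a library. CAV1, the coat protein of caveolae, was at 649 TPM and GPRC5A at 141 TPM in EV cells. Of the 11 airway genes found, 5 were at 0, including SCGB1A1, the secretoglobin of club cells, and the summed level of the list was between 3.65 and 4.81 TPM in EV cells. Of 14 markers of blood, endothelial and connective tissue cells 6 were under the floor in every library; PECAM1, CD3E, DCN and ADIPOQ were at 0 in all of them. Their summed level was between 38.3 and 45.3 TPM in EV cells and between 60.5 and 66.5 TPM with the FCN3 virus, most of it CD68, a lysosomal glycoprotein. The part of these markers in any result below was not tested.

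By TPM, FOXA2 was the highest of the 5 expressed genes, at 32.8 ± 0.721 TPM in EV cells (SD, n = 2), above the level of 82.7% of all genes. ABCA3 followed at 16.5 ± 0.566 TPM, then HNF4A at 7.92 ± 5.37 TPM, FOXA1 at 4.06 ± 1.05 TPM and GATA6 at 1.6 ± 0.403 TPM (SD, n = 2 each). FOXA2 lay above ABCA3, and ABCA3 above HNF4A, over all 4 libraries: the lowest FOXA2 value was 29.8 TPM and the highest ABCA3 value 20.7 TPM. HNF4A and FOXA1 overlapped, since HNF4A was at 4.12 TPM in EV replicate 1 and FOXA1 at 4.80 TPM in EV replicate 2. FOXA1 and GATA6 did not overlap in EV cells, but they did once the FCN3 libraries were included.

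For the comparison of the groups, edgeR's quasi-likelihood test was run on all 14099 genes that passed its filter, with Benjamini-Hochberg adjustment and an FDR of 0.01. It called 0 of the 5 expressed lineage genes, and 0.965% of all tested genes. DESeq2 also called 0 of the 5, against 7.91% of the genes it tested, while 2 of the 5, ABCA3 and GATA6, had an unadjusted p under 0.05 in edgeR, as did 25.1% of all tested genes. limma-voom (0.979% of genes called), limma on log2(TPM + 0.1) (0.83%), edgeR with RLE factors (0.986%), with no filter (0.853%) or with at least 10 counts in every library (1.08%) called 0 of the 5 as well, and so did edgeR with 1 library left out, where between 0.654% and 1.82% of genes were called. At an FDR of 0.05, ABCA3 was the 1 gene of the 5 called, against 7.19% of all tested genes. With the replicate number as a block, edgeR called 3 of the 5, all higher with the FCN3 virus, against 36.2% of all tested genes (19.1% higher). For 2 of the 5, ABCA3 and GATA6, the groups did not overlap and the FCN3 values were the higher ones, as for 28% of all tested genes; groups did not overlap in either direction for 54.5%. With 2 libraries in each group the smallest two-sided p of an exact permutation test is 0.333, and single genes were therefore judged by fits across all genes. In bulk RNA, a change in the number of cells that express a gene cannot be told apart from a change in RNA per cell.

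GATA6 showed the largest change among the 5 genes. The gene occupies chromosome 18 from 19749550 to 19782491, plus strand. Its expected counts were 95 and 63 in EV replicates 1 and 2 and 283 and 125 with the FCN3 virus, which after TMM normalization are 2.61 and 3.76 CPM against 8.34 and 6.28 CPM. Both FCN3 libraries were higher than both EV libraries, with no overlap. This gave a log2 fold change of 1.28 (SE 0.27, edgeR adjusted p = 0.053) without the block and 1.31 (SE 0.17, edgeR adjusted p = 7.5e-09) with it. The paired difference was larger in replicate 1 (1.68 on the log2 scale) than in replicate 2 (0.74), and both were increases. As GATA6 was the lowest of the 5 genes, with 63 counts in its shallowest library, its counting error is the largest. The libraries were made with a stranded mRNA kit, but the strand setting of the counting is not stated. Of the GATA6 exon bases 2.47% are shared with GATA6-AS1 and 8.45% with another noncoding gene, both on the opposite strand. A part of the GATA6 counts is therefore uncertain.

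ABCA3, the lamellar body transporter (chromosome 16, 2325882 to 2390747, minus strand), was at 56.6 and 59.9 CPM in EV replicates 1 and 2 and at 79.3 and 76.9 CPM with the FCN3 virus, from between 1003 and 2691 counts in a library. The groups did not overlap, and within each group the libraries differed by less than 4 CPM. edgeR gave a log2 fold change of 0.43 (SE 0.09, edgeR adjusted p = 0.050), or 0.43 (SE 0.06, edgeR adjusted p = 7.1e-08) with the block. Between replicate 1 libraries the difference was 0.49 and between replicate 2 libraries 0.36 on the log2 scale. ABCA3 was therefore the only surfactant gene among the 9 for which a level could be compared.

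HNF4A (chromosome 20, 42984339 to 43061485, plus strand) differed more between replicate numbers than between viruses. It was at 9.88 CPM in EV replicate 1 and 15.3 CPM in FCN3 replicate 1, but at 28.2 CPM in EV replicate 2 and 30.2 CPM in FCN3 replicate 2. The groups overlapped, and both replicate 2 libraries lay above both replicate 1 libraries. Replicate 2 was 2.85-fold the level of replicate 1 in EV cells and 1.97-fold with the FCN3 virus. In edgeR with the group in the model, the difference between replicate numbers was 1.23 on the log2 scale (SE 0.10), and HNF4A was the only 1 of the 5 genes called for it, against 22.2% of all tested genes. What the replicate number stands for is not given in the labels, and in both groups it goes with depth.
Without the block, the log2 fold change of HNF4A between the groups was 0.30 (SE 0.55, edgeR adjusted p = 0.79), with a 95% interval from -1.10 to 1.69. Without EV replicate 1 it was -0.33 and without FCN3 replicate 2 -0.28, whereas it was 1.17 without EV replicate 2 and 0.70 without FCN3 replicate 1. These fits did not pair the libraries, so each mixed the difference between replicate numbers into that between viruses. They cannot show whether the direction rested on single libraries. With the block the log2 fold change was 0.35 (SE 0.10, edgeR adjusted p = 0.0020). DESeq2 with the block, however, gave an adjusted p of 0.18 for the same difference (0.35, SE 0.18). The paired difference was 0.63 in replicate 1 and 0.10 in replicate 2, both increases. The tables also give a mean transcript length per gene, weighted by RSEM over the RefSeq transcripts of HNF4A. This length was 4560 and 4539 bases in EV replicates 1 and 2 and 4482 and 4419 bases with the FCN3 virus, lower in both FCN3 libraries, and no test was made of it.

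**Figure D2:**
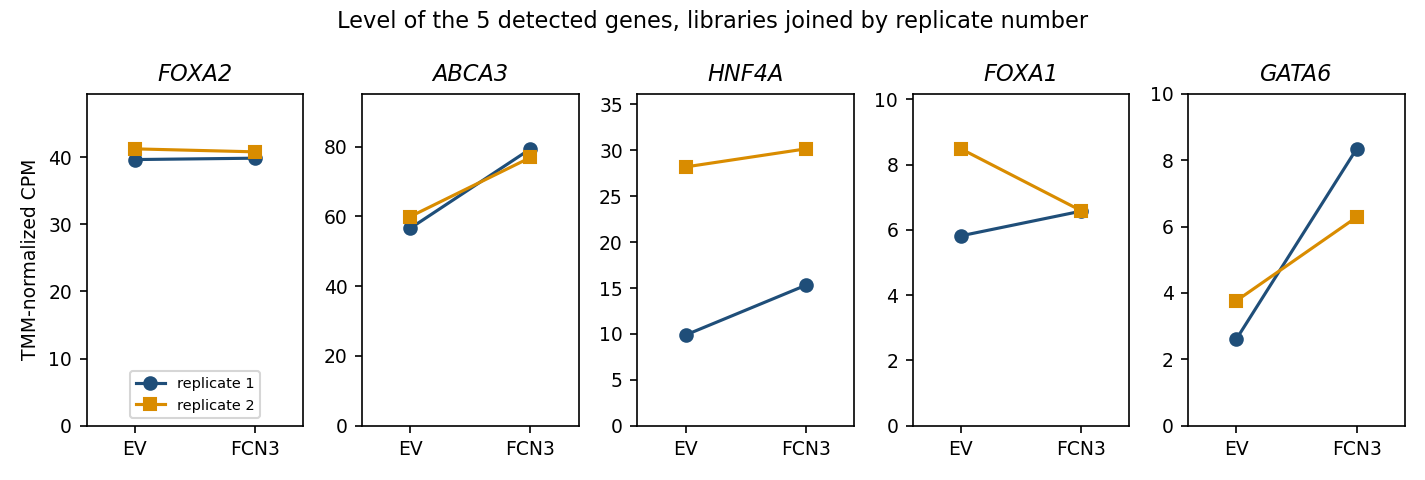
TMM-normalized CPM of the 5 expressed genes in EV and FCN3 libraries, each panel with its own axis from 0, with lines that join libraries of the same replicate number. GATA6 and ABCA3 rise along both lines, the HNF4A lines lie apart by replicate number (9.88 to 15.3 CPM against 28.2 to 30.2 CPM), and the FOXA2 lines are nearly level.

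FOXA2 and FOXA1, the forkhead factors, were not called with or without the block. FOXA2 (chromosome 20, 22561636 to 22566093, minus strand) was at 39.6 and 41.2 CPM in EV replicates 1 and 2 and at 39.8 and 40.8 CPM with the FCN3 virus, so all 4 libraries lay within 2 CPM. The 95% interval of its log2 fold change ran from -0.24 to 0.23 without the block and from -0.14 to 0.14 with it, which leaves room for at most a 1.17-fold increase or a fall to 0.848-fold in the wider interval. LINC00261, a noncoding gene beside FOXA2, was at 5.38 and 4.72 CPM against 5.01 and 3.42 CPM (log2 fold change -0.24, SE 0.25, edgeR adjusted p = 0.60).
FOXA1 (chromosome 14, 38058757 to 38065264, minus strand) was at 5.82 and 8.48 CPM in EV replicates 1 and 2 and at 6.57 and 6.59 CPM with the FCN3 virus. Both FCN3 values lay between the EV values. edgeR gave a log2 fold change of -0.07 (SE 0.23, edgeR adjusted p = 0.88), and the paired differences had opposite signs, 0.18 in replicate 1 and -0.37 in replicate 2. Its 95% interval with the block, from -0.34 to 0.23, is wider than that of FOXA2.

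**Figure D3:**
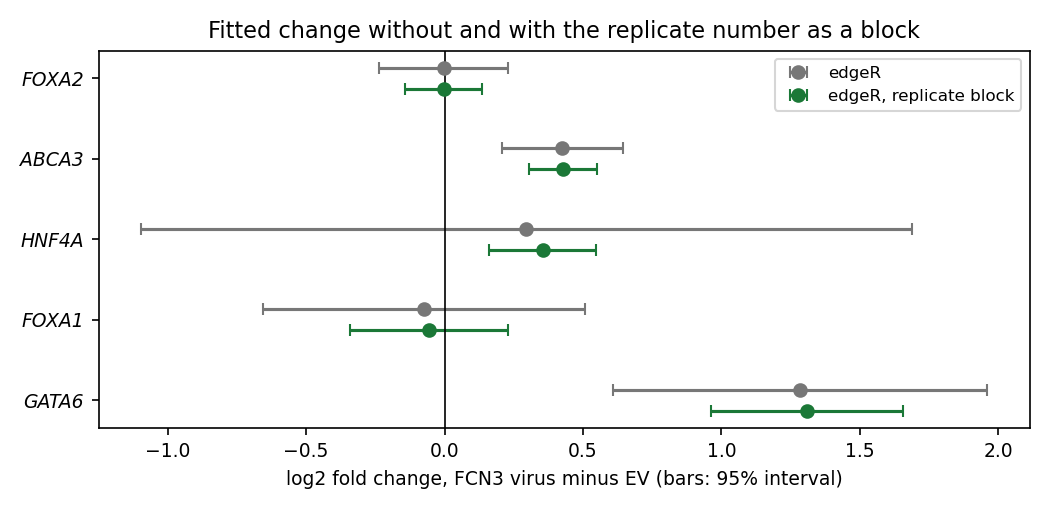
Log2 fold change of the 5 expressed genes, FCN3 virus minus EV, from edgeR without (grey) and with (green) the replicate number as a block; bars are 95% intervals. GATA6 (1.28 and 1.31) and ABCA3 (0.43 and 0.43) lie to the right of 0 in both fits, and the HNF4A interval crosses 0 only without the block.

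Lists of related genes were read from the same fits: alveolar type 2, type 1 and airway genes, other endoderm transcription factors, liver and gut secretory genes, surfactant processing and lipid supply, simple epithelium, noncoding neighbours and other cell types. Of their 67 tested genes edgeR called 0 without the block (0.965% of all tested genes), 24 had an unadjusted p under 0.05 (25.1% of all tested genes), and DESeq2 called 9 (7.91% of the genes it tested). With the block edgeR called 35, of which 16 were higher and 19 lower with the FCN3 virus, or 52.2% against 36.2% of all tested genes. LAMP3, MUC5B, FOXJ1 and ONECUT1 passed the filter through the libraries of 1 group only and so had to differ; among the other 63 genes, 15 were called higher and 17 lower (50.8%, against 36.1% of all genes that passed through both groups). The 5 lineage genes passed through both groups. The calls named in the rest of the text are those of edgeR with the block. With 4 libraries this fit leaves little to estimate the spread of each gene. Its p-values therefore rest mostly on a spread shared across genes, and very small ones should not be read as precision of single genes. DESeq2 with the block called 16 related genes, against 15.8% of the genes it tested. The median log2 fold change of all tested genes was 0.02. Medians of lists with under 10 tested genes moved with single libraries. As each library was left out, they ran from -0.26 to -0.08 for type 1 genes and from 0.08 to 0.43 for simple epithelium.

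Among 20 tested endoderm transcription factors 3 were called higher and 5 lower, where 19.1% of all tested genes were called higher and 17.1% lower. The median log2 fold change was -0.01. These values include ONECUT1, which passed the filter only through the EV libraries and was not called. ID2, an inhibitor of basic helix-loop-helix factors that marks the distal lung bud, was at 152 and 213 CPM in EV replicates 1 and 2 and at 53.1 and 75 CPM with the FCN3 virus. This was the largest decrease in the list among genes called (log2 fold change -1.51, SE 0.23, edgeR adjusted p = 0.025 without the block and 4.2e-29 with it). KLF4, a zinc finger factor of differentiating epithelium, was at 9.63 and 8.24 CPM against 27.4 and 22.3 CPM (1.47, SE 0.17, edgeR adjusted p = 0.013 without the block and 2.4e-18 with it). KLF5 and FOXP1 were also called higher, by 0.68 and 0.67 on the log2 scale. NR5A2 (-0.53), a nuclear receptor of liver and pancreas, and SOX9 (-0.39), a factor of endoderm progenitors, were among those called lower. CEBPB (0.20), ELF3 (0.02), and GATA4 (-0.12), a relative of GATA6, were not called, and GATA4 was at 5.08 and 4.84 CPM in EV cells and 4.51 and 4.68 CPM with the FCN3 virus.

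Many genes of the liver and gut list are known targets of HNF4A, but a link of its changes to HNF4A was not tested. The list had 12 of 25 genes under the floor in every library, among them ALB, APOB and TTR. Of its 8 tested genes 0 were called higher and 5 lower, against 17.1% of all tested genes called lower, and its median log2 fold change was -0.82. DESeq2 with the block called 1 gene of the list, against 15.8% of the genes it tested. Without the block edgeR called 0 of the list, against 0.965% of all tested genes. CYP24A1, the enzyme that breaks down vitamin D, was the highest of the list and was at 854 and 994 CPM in EV cells against 492 and 536 CPM in FCN3 libraries (log2 fold change -0.85, SE 0.11, edgeR adjusted p = 0.017 without the block and 7.4e-21 with it). F2, which encodes prothrombin, was at 1.70 and 4.24 CPM against 1.06 and 1.71 CPM. AMBP, which encodes a plasma protease inhibitor, fell from 2.58 and 2.87 CPM to 1.24 and 0.905 CPM (-1.27), and APOH and RBP4 were the other called genes. APOE, which encodes an apolipoprotein (0.27), was not called. Its values of 1.76 and 8.66 CPM against 2.48 and 9.20 CPM were higher in replicate 2, as those of HNF4A were. The list median was -0.44 without EV replicate 2 and -0.43 without FCN3 replicate 1.

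In the list of surfactant processing and lipid supply, 12 genes were tested. LAMP3, 1 of them, passed the filter only through the FCN3 libraries, so no count or median is given for this list. Over all tested genes 19.1% were called higher and 17.1% lower. NPC2, a lysosomal sterol carrier secreted with surfactant, was called higher (log2 fold change 0.43). It was at 71.2 and 70.8 CPM in EV cells and at 100.1 and 90.5 CPM in FCN3 libraries. PCYT1A, the enzyme that controls the pace of phosphatidylcholine synthesis (0.35), and PLIN2, a lipid droplet coat protein (0.30), were also called higher. LPCAT1 was called lower, at 206 and 147 CPM against 131 and 98.2 CPM (-0.63), as was the phospholipid flippase ATP11A (-0.26). PRDX6, a peroxiredoxin with phospholipase activity, was not called (0.02). The maturation proteases of SFTPB were not called either: NAPSA had between 7 and 18 counts in a library, and CTSH was at 11.1 and 11.1 CPM against 9.61 and 12.8 CPM.
LAMP3, a membrane protein of lamellar bodies and of mature dendritic cells, was named after its values were seen, since it lay below the abundance limit for naming. It had 12 and 2 counts in EV replicates 1 and 2 and 81 and 61 counts in FCN3 libraries, or 0.329 and 0.119 CPM against 2.39 and 3.07 CPM. Because it passed the filter only through the FCN3 libraries, these values are given as a description, with no test.

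The 9 tested type 2 genes include LAMP3, so no count or median is given for this list. ETV5 (0.75) and HHIP (0.52) were called higher and LPCAT1 lower. Over all tested genes 19.1% were called higher and 17.1% lower. SDC1 was not called (-0.13). HHIP, a hedgehog antagonist, was at 3.84 and 1.37 CPM against 5.75 and 2.06 CPM and overlapped between groups. Among 6 tested type 1 genes CAV1 (0.55) and GPRC5A (0.22) were called higher and EMP2 (-0.79) and AKAP5 (-0.89) lower, with a list median of -0.12. Of the airway genes, SOX2, a factor of the proximal airway, was called lower, at 1.81 and 4.18 CPM against 1.21 and 1.16 CPM. The unpaired fit did not call SOX2 (edgeR adjusted p = 0.22). DESeq2 did not call SOX2 either, whether or not libraries were paired. The paired difference of SOX2 was -0.58 in replicate 1 and -1.85 in replicate 2 on the log2 scale. FOXJ1 (38 and 10 counts in EV replicates 1 and 2, 12 and 3 with the FCN3 virus) and MUC5B (18 and 9 against 2 and 0 counts) passed the filter only through the EV libraries, so no count or median is given for this list. SPDEF, a factor of goblet cells (-0.37), was not called.
Markers of simple epithelium moved in both directions, with 4 called higher and 2 lower among 7 tested (median 0.26). The shares over all tested genes were 19.1% higher and 17.1% lower. KRT19, a keratin, was at 23.1 and 37.5 CPM in EV cells and 67.3 and 74.4 CPM in FCN3 libraries (log2 fold change 1.24), and the tight junction gene CLDN4 (1.16), KRT18 (0.31) and KRT8 (0.26) were called higher. CDH1, which encodes E-cadherin (-0.53), and EPCAM, an adhesion molecule (-1.12), were called lower, and KRT7 (0.09) was not called. Of the 4 tested markers of other cell types CD68 (0.79) was called, and COL1A1 (-0.02) and CD79A (-0.37) were not.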

How the data were processed

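The authors trimmed paired-end reads with Fastx_toolkit, aligned them to hg19 with STAR 2.6.1d and estimated abundance per gene with RSEM. The authors deposited expected counts, which are not normalized, beside TPM and FPKM, which RSEM scales by effective length and depth. The deposited FPKM values and the mean transcript lengths entered no test. Transcripts in the tables carry RefSeq accessions. The paper names a stranded mRNA library kit, but the strand setting of RSEM is not given in the sources used here.

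After rounding, expected counts were tested in R 4.3.3 with edgeR 4.0.16 (TMM, filterByExpr, quasi-likelihood test, FDR 0.01) on 14099 of 25192 genes. A second fit added the replicate number as a block. CPM is TMM-normalized except at the detection floor, and a gene is detected from 3 counts in each library. Standard errors (SE) equal the size of the log2 fold change over the square root of F. Alternatives included DESeq2 1.42.0 and limma 3.58.1. The fits were tested on simulated data. Locations are from GENCODE on GRCh37. Samples were grouped by their titles.

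The 9 genes and the lists were chosen with earlier results of these data known. From each list the text names up to 4 called genes of largest change that averaged 1 or more in log2 CPM, and the 3 highest in EV cells by TPM; others were named after their values were seen. ADGRF5 was matched by its older symbol, and 4 list genes were not matched. Sequences are not printed for every gene. Single values of some list genes are not reported here.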

Additional observations from a re-analysis of the deposited data

How the results depend on the processing

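When 1 library at a time was left out, its group kept only 1 library, so the size of the change is given here without calls. The log2 fold change then ran from 0.99 to 1.503 for GATA6, from 0.39 to 0.46 for ABCA3, from -0.33 to 1.17 for HNF4A, from -0.36 to 0.17 for FOXA1 and from -0.024 to 0.017 for FOXA2. FOXA1 turned positive only without EV replicate 2. These fits did not pair the libraries by replicate number. An arm left with 1 library is assumed to vary like the other. FOXA2 also changed sign, to 0.00079 with FCN3 left out before normalization and to 0.00074 with at least 10 counts required in every library; the causes were not tested.

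The replicate block moved the calls from 0 to 3 lineage genes and from 0 to 35 related genes in edgeR, which then called 36.2% of all tested genes, and to 2 (ABCA3 and GATA6) and 16 in DESeq2, which called 15.8% of the genes it tested. The labels give only the shared number: across 8310 genes averaging over 4 in log2 CPM, the difference between replicates 1 and 2 in EV libraries correlated with that in FCN3 libraries (Pearson's r = 0.806, across genes, which are not independent replicates). DESeq2 without the block called 9 related genes, against 7.91% of the genes it tested. An FDR of 0.05 gave 1 lineage gene, ABCA3, and 9 related genes, against 7.19% of all tested genes. The other settings (limma-voom, limma on TPM, RLE factors, FCN3 left out, an effective length offset and both filters) called 0 of either. They called only between 0.745% and 1.08% of all genes they tested. On log2(TPM + 0.1) the median of all genes shifted by -0.10. A floor of 10 counts left 5 genes detected. Precision for GATA6 and FOXA1 is limited by their lowest counts in a library, 63 and 131.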
